A study of Homo sapiens with 8 samples.

Results

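The 50 genes described here encode the outer parts of the WNT signalling pathway and 5 of its transcriptional targets: 17 WNT ligands, 15 receptors (the Frizzled, LRP and LGR families), 9 secreted antagonists (DKK and SFRP families with FRZB), 4 R-spondins, and AXIN2, LEF1, TCF7, SP5 and NKD1. They were taken by name from a fixed list, and each gene was read from its brightest probe set, by mean over the arrays, among those naming no other gene. Of the 50 members, 46 had such a probe set, out of 19775 genes on the array, and 39 were bright enough to be tested, out of 14072 genes. RNA came from human embryonic stem cells that the labels assign to H9, an established pluripotent line, cultured in the feeder-free medium mTeSR. The 4 groups were embryoid bodies (floating aggregates in which such cells differentiate) given 20 mM ethanol for 24 h, embryoid bodies with 0 mM, undifferentiated cells given 20 mM for 24 h, and undifferentiated cells with 0 mM, with 2 arrays in each. The study's design describes duplicate treatments and does not say whether these were separate cultures, so p-values measure the spread between these arrays, which may be technical.

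Transcripts that differ between cell lines went against the labelled line on 4 of the 8 arrays, and these 4 were the arrays of 1 of the 2 stages. Every comparison of embryoid bodies with undifferentiated cells below, and every difference between the stages in their response to ethanol, therefore cannot be told apart from a difference between lines. No such comparison can be made without those 4 arrays. The ethanol comparisons within a stage were also fitted with the 4 arrays of that stage alone.

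WNT proteins are lipid-modified secreted ligands that bind Frizzled receptors together with the coreceptors LRP5 and LRP6, and in the canonical branch this stabilises beta-catenin, which then acts with TCF and LEF factors at target genes. DKK proteins bind LRP5 and LRP6, SFRP proteins and FRZB bind WNT ligands outside the cell, and R-spondins act through LGR4, LGR5 and LGR6 to keep Frizzled receptors on the membrane. In the early embryo this pathway is best known for its part in primitive streak and mesoderm formation, and in cultured pluripotent cells for its influence on the choice between self-renewal and differentiation.

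The deposited signals had a common trimmed mean of 500 on each array. The median signal of an array was 102 in embryoid bodies with ethanol, 85.1 in those without, 74.1 to 79.4 in undifferentiated cells with ethanol and 69.2 to 70.8 in those without. A probe set under that median is called dim here, and its fold changes are imprecise. Most marker genes moved with stage. Of 8 pluripotency markers 7 were lower in embryoid bodies at 20 mM and 5 at 0 mM. All 8 stayed above the median of every embryoid body array. All 6 endoderm and yolk sac markers and all 4 mesenchyme markers were higher at both doses. Of 5 tested mesoderm markers 4 were higher at both doses, as were 4 of 5 neuroectoderm markers, leaving TBXT and OTX2 uncalled. Of 2 tested trophoblast markers GATA3 was higher and KRT7 lower at both doses. Ratios of 3′ to 5′ probe signal ran from 1.35 to 1.58 for ACTB and from 0.851 to 0.977 for GAPDH.

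Most WNT pathway members were higher in embryoid bodies than in undifferentiated cells. At 20 mM ethanol 32 of the 39 tested members were higher and 1 was lower, beside 29.2% higher and 27.1% lower among all genes tested. At 0 mM 28 were higher and 2 were lower, beside 28% and 24.7% of all genes. The calls are from limma with a Benjamini-Hochberg adjusted p under 0.05 over all genes, and the 2 comparisons share no array, though 1 estimate of the spread serves both. Both doses gave a call in the same direction for 28 higher members and 1 lower member, the antagonist SFRP1. In RNA from whole cultures, fewer cells of a type and less RNA per cell cannot be told apart. Most of the germ layer and mesenchyme markers named above moved with the same contrast. Their part in the result was not tested.

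Over the tested members the log2 changes had a median of 1.81 at 20 mM and of 1.63 at 0 mM, against 0.02 over all genes at either dose. With dim values raised to the median of their array, it was 1.25 at both doses, against 0.05 over all genes. Of the 39 tested members, 9 lay above the array median in embryoid body arrays alone, so that the filter admitted them through the group where they were high. The receptor FZD9 entered through undifferentiated arrays alone. With no filter, 32 of the 46 measured members were higher and 1 was lower at 20 mM, beside 20% and 16.4% of all genes, and 25 were higher and 2 lower at 0 mM, beside 18.2% and 14.8%. A filter on the mean of the 8 arrays kept 35 members, of which 29 were higher and 1 lower at 20 mM (30.2% and 29.7% of all genes) and 26 higher and 1 lower at 0 mM (29% and 27%). Centring each array on its median lowered the median change of all genes to -0.40 at 20 mM and -0.27 at 0 mM, and the share of higher calls among all calls to 25% and 30.1%, against 51.9% and 53.2% as deposited. The medians of the members were then 1.40 and 1.35.

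**Figure D1:**
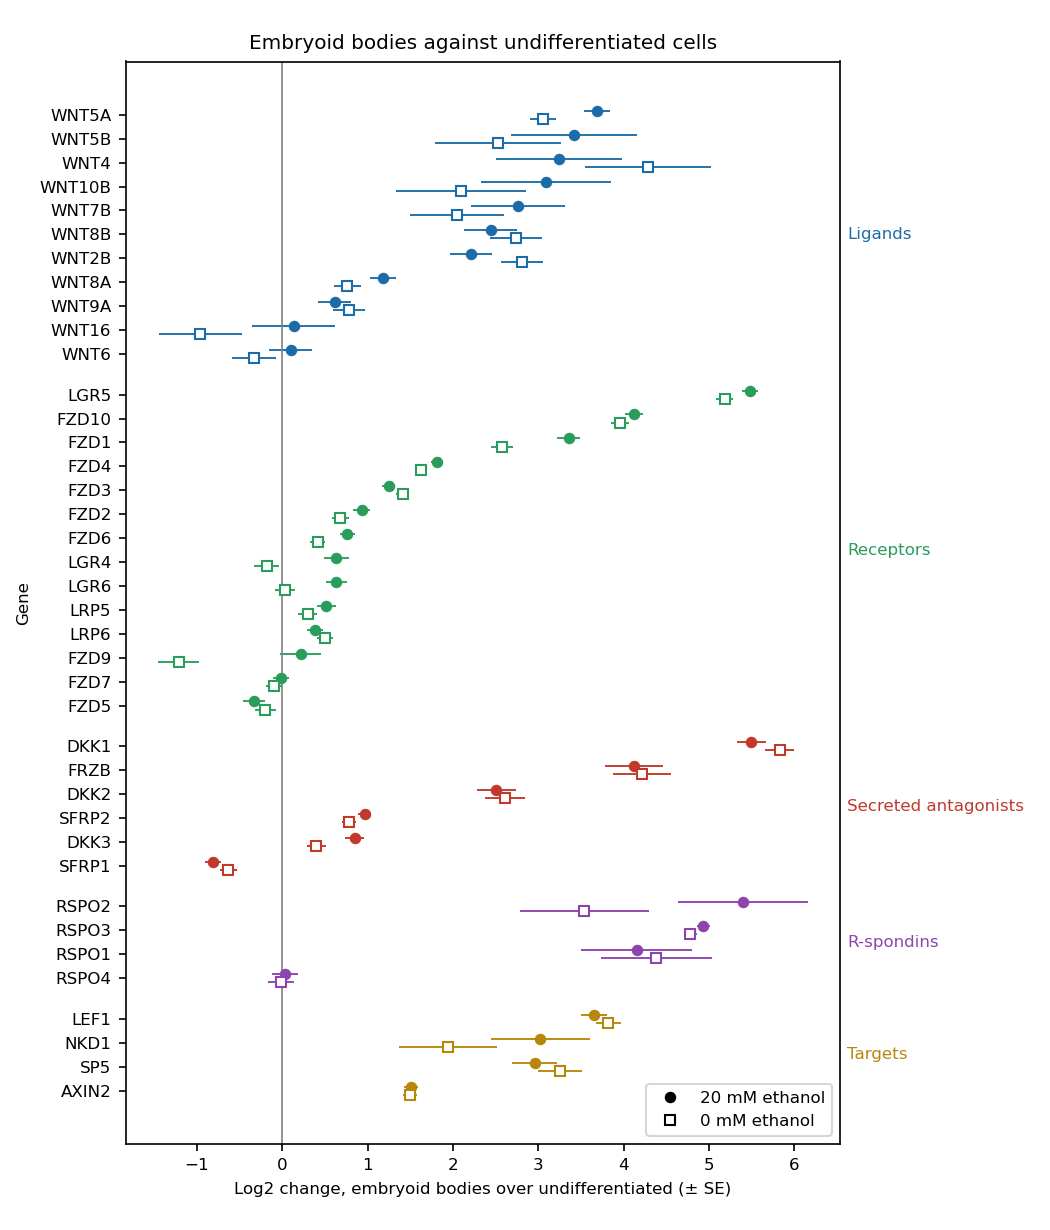
Log2 change of each of the 39 tested members, embryoid bodies over undifferentiated cells, at 20 mM (filled circles) and 0 mM ethanol (open squares), with the standard error of the fit as bars, ordered by role and size. DKK1, RSPO3, FRZB and FZD10, above the array median on all 8 arrays, lie between 3.95 and 5.83 at both doses, and SFRP1 lies left of 0 at both. The points are drawn without a floor, so those of members dim in undifferentiated cells, such as LGR5, RSPO1, RSPO2 and WNT4, are imprecise.

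Promoters of the members were searched for the letters bound by TCF and LEF factors, CTTTGAT and CTTTGAA, on both strands. Of the 50 members 33 had a RefSeq promoter window of 300 bases (250 before the gene start and 50 from it on, GRCh38.p14), and 2 of these, SP5 and DKK1, held a match, which is 6.06% of the member windows, against 6.98% (1906) of all 27303 windows. The stretch of 150 bases from 200 to 51 bases before the start is shown for both, and for LEF1 as a target without a match, since these members were 7.76-fold to 56.9-fold higher in embryoid bodies. Capitals mark the matched letters, read along the strand of the gene, and TTCAAAG is CTTTGAA on the other strand.
SP5, chr2:170715137-170715286, plus strand: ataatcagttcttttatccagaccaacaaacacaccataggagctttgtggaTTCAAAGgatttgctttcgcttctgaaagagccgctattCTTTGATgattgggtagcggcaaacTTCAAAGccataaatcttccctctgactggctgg
DKK1, chr10:52314081-52314230, plus strand: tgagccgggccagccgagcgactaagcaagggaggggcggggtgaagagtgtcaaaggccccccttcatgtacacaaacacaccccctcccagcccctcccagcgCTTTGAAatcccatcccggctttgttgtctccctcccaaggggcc
LEF1, chr4:108166352-108166501, minus strand: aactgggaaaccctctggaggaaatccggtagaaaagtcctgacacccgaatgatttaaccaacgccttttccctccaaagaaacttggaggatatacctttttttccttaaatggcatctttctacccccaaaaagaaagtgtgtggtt
The SP5 window held 3 matches, starting 148, 109 and 84 bases before the gene start, and the DKK1 window held 1, starting 95 bases before it. A match describes the letters of the window and shows no binding, and a window without one, as for LEF1, says nothing of binding elsewhere.

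Ligands divided into a majority that was higher in embryoid bodies and 2 that were not called at either dose. Of 11 tested ligands 9 were higher at 20 mM and 8 at 0 mM, and none was lower. WNT5A, the best known ligand of the non-canonical branch, had signals of 2290 and 2950 in embryoid bodies with ethanol, against 219 and 186 in undifferentiated cells with ethanol. Without ethanol it stood at 1450 and 1660 in embryoid bodies, against 182 and 191 in undifferentiated cells. The lowest embryoid body array was far above the highest undifferentiated one. The log2 changes were 3.69 ± 0.15 at 20 mM and 3.06 ± 0.15 at 0 mM (SE, n = 2 arrays per group, limma adjusted p = 4.5e-05 and 9.39e-05), and a second probe set gave 3.99 and 3.22.

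WNT4, a ligand with roles in the kidney and the female reproductive tract, had signals of 437 and 380 in embryoid bodies with ethanol, against 74.1 and 25.1 in undifferentiated cells with ethanol. At 0 mM its signals were 490 and 389 in embryoid bodies, against 11.5 and 43.7 in undifferentiated cells. All 4 undifferentiated arrays were dim, and the pair of replicates at 0 mM differed 3.8-fold, the widest of any tested member in that group. Raised to the median of their arrays, the undifferentiated values put WNT4 at least 5.31-fold higher at 20 mM and at least 6.24-fold higher at 0 mM (limma adjusted p = 0.0122 and 0.00488 in the fit without that floor). The other WNT4 probe sets were dim on every array, with log2 changes of 2.01 and -0.20 at 20 mM and 1.59 and 0.58 at 0 mM. The call at 20 mM was lost without the 20 mM undifferentiated replicate B or without either embryoid body array of that dose.

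WNT2B, a close relative of WNT2, gave 219 and 251 in embryoid bodies with ethanol, against 61.7 and 41.7 in undifferentiated cells with ethanol. The same 219 and 251 were read in embryoid bodies without ethanol, against 28.2 and 39.8 in undifferentiated cells. Undifferentiated arrays were again all dim, which leaves differences of at least 3.05-fold at 20 mM and at least 3.35-fold at 0 mM (limma adjusted p = 0.00087 and 0.000474 without the floor). Its other 3 probe sets had log2 changes of 2.82 to 3.69 at 20 mM and 2.67 to 3.85 at 0 mM.

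The other ligands called higher at both doses were WNT5B, WNT7B, WNT8A, WNT8B and WNT9A. WNT8A and WNT8B were dim on all 4 undifferentiated arrays, and WNT5B and WNT7B on 3 of them. With the floor, WNT5B was 5.25-fold and 4.73-fold higher at 20 and 0 mM, and WNT7B 4.03-fold and 2.37-fold. WNT8B was at least 3.89-fold and 4.57-fold higher, and WNT8A at least 1.41-fold higher at 20 mM. At 0 mM the floored 1.23-fold of WNT8A is no lower bound, since embryoid body replicate A was itself dim (75.9). WNT9A, above the median on all arrays, was 1.53-fold and 1.72-fold higher, but its call at 20 mM was lost under 11 of 18 alternatives, among them leaving out any of 5 single arrays, and that of WNT5B at 0 mM under 8 of 17. WNT10B was called at 20 mM alone (adjusted p = 0.0161, against 0.0619 at 0 mM), from undifferentiated arrays that were all dim. With the floor WNT10B was at least 2.04-fold and at least 2.29-fold higher. The floor replaces all 4 undifferentiated values and so removes their spread, which was 5.89-fold between the replicates at 20 mM. A floored p-value therefore cannot add a call at 0 mM. WNT6 and WNT16 were not called at either dose, with log2 changes of 0.10 and 0.13 at 20 mM and -0.33 and -0.96 at 0 mM, and the values at 20 mM turned negative under each of the 3 other normalisations. For WNT6 the 3 dimmer probe sets disagreed with one another in direction. Among the dim ligands WNT1, WNT2, WNT7A and WNT11, left out by the filter, WNT11 was called higher at both doses in the fit without a filter, but 1 embryoid body array alone lay above its median, at 120, so no fold is given. WNT3 and WNT3A had no probe set of their own.

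**Figure D2:**
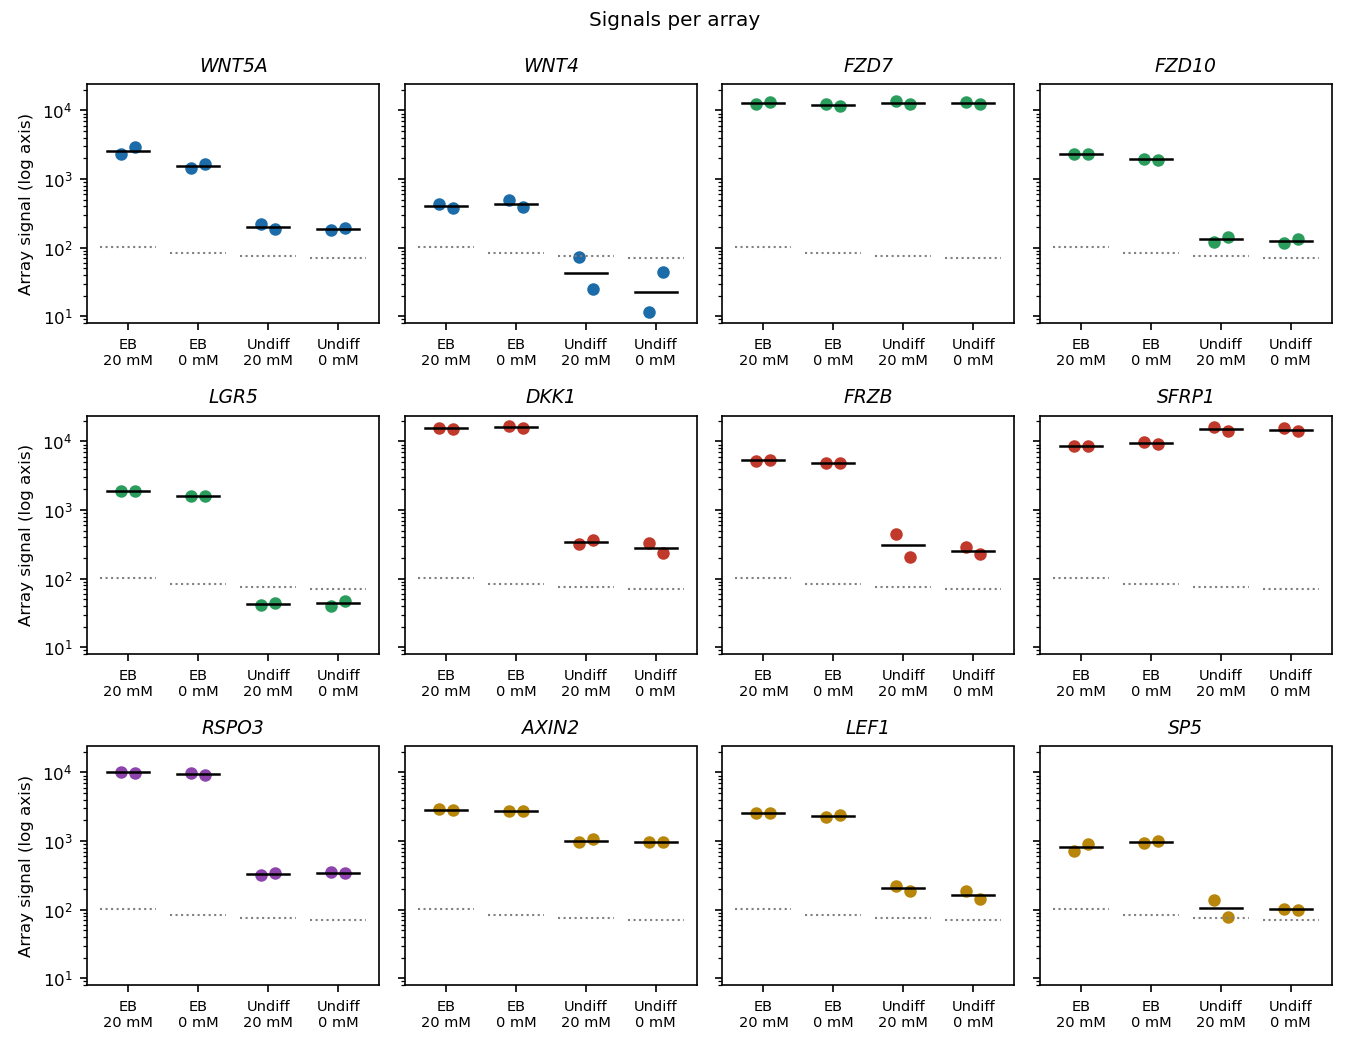
Array signals on a logarithmic axis for 12 members in embryoid bodies (EB) and undifferentiated cells (Undiff) at 20 and 0 mM ethanol, with a point per array, a black line at the geometric mean of 2 arrays and a dotted line at the array median. Heights cannot be compared between genes, which have different probes. DKK1 stands at 15100 to 16600 in the embryoid body arrays and 240 to 372 in the undifferentiated ones, FZD7 at 11500 to 13800 in all 8 arrays, and SFRP1 is lower in all 4 embryoid body arrays.

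Receptors ranged from LGR5, at least 22.9-fold higher, to members that passed at neither dose. Of 14 tested receptors 11 were higher at 20 mM, and 8 were higher and 1 was lower at 0 mM. LGR5, an R-spondin receptor and marker of intestinal stem cells, had 1910 on each embryoid body array with ethanol, against 41.7 and 43.7 in undifferentiated cells with ethanol. At 0 mM its signals were 1580 and 1620 in embryoid bodies, against 40.7 and 47.9 in undifferentiated cells. Since LGR5 was dim in all 4 undifferentiated arrays, its differences are given as at least 24.8-fold at 20 mM and at least 22.9-fold at 0 mM (limma adjusted p = 6.78e-06 and 7.27e-06 without the floor).

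FZD10, a Frizzled receptor of the embryo that is scarce in most adult tissues, read 2340 and 2290 in embryoid bodies with ethanol, against 123 and 145 in undifferentiated cells with ethanol. Its signals at 0 mM were 1950 and 1910 in embryoid bodies, against 117 and 132 in undifferentiated cells. The change was 17.4-fold at 20 mM (log2 4.12 ± 0.10) and 15.5-fold at 0 mM (log2 3.95 ± 0.10), and all 8 arrays were above their medians.

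FZD1, a receptor for canonical and non-canonical ligands, measured 1910 and 2090 in embryoid bodies with ethanol, against 214 and 178 in undifferentiated cells with ethanol. Embryoid bodies without ethanol had 1200 and 1320, against 229 and 195 in undifferentiated cells. Groups of different stage stood far apart, at 10.2-fold for 20 mM (log2 3.36 ± 0.13) and 5.96-fold for 0 mM (log2 2.57 ± 0.13). FZD2, FZD3, FZD4, FZD6 and the coreceptor LRP6 were also called higher at both doses, with log2 changes of 0.38 to 1.81 at 20 mM and 0.42 to 1.63 at 0 mM. For LRP6 the change was small, turned to -0.03 at 20 mM after median centring, and was lost with the mean of its 3 probe sets. The other LRP6 probe sets gave -0.05 and 0.83 at 20 mM, and -0.37 and 0.10 at 0 mM.

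FZD7, the Frizzled receptor best known from undifferentiated human pluripotent cells, was bright on all 8 arrays and not called at either dose. It had 12600 and 13200 in embryoid bodies with ethanol, against 13800 and 12300 in undifferentiated cells with ethanol, and 12300 and 11500 in embryoid bodies without it, against 13200 and 12300. The ranges of the stages overlapped at 20 mM and touched at 0 mM, with log2 changes of -0.02 ± 0.09 and -0.10 ± 0.09 (limma adjusted p = 0.89 and 0.391). The scaling decided its call: FZD7 was lower after median centring (-0.43 at 20 mM and -0.38 at 0 mM, adjusted p = 0.00603 and 0.0116), and at 20 mM it was higher after quantile normalisation (0.24, adjusted p = 0.0471) and cyclic loess (0.30, adjusted p = 0.0226). FZD5 was likewise not called, at -0.33 ± 0.12 and -0.20 ± 0.12 (limma adjusted p = 0.0647 and 0.225), though its arrays were lower without overlap at both doses. Of the alternatives keeping every array, the 75th percentile filter, median centring, the floor, and a trended and robust variance called FZD5 at 20 mM. Among these, median centring alone called it at 0 mM. Some fits that left out 1 array called it as well. A second FZD5 probe set gave -0.40 and -0.30.

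Some receptors were called at 1 dose. The R-spondin receptors LGR4 and LGR6 and the coreceptor LRP5 were called higher at 20 mM alone (log2 changes of 0.63, 0.63 and 0.51), against -0.18, 0.03 and 0.30 at 0 mM, and the calls of LGR6 and LRP5 were lost under each of the 3 other normalisations. FZD9, whose gene lies in the region deleted in Williams syndrome, was called lower at 0 mM alone, with 51.3 and 44.7 in embryoid bodies, against 123 and 100 in undifferentiated cells. Both embryoid body values are dim, and with the floor the change was -0.38 (adjusted p = 0.0988), against -1.21 without it (adjusted p = 0.00797). A difference between the stage changes at the 2 doses is the same quantity as a difference between the ethanol effects in the 2 stages, for which no member passed. FZD8 had no probe set of its own.

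Secreted antagonists included DKK1, 45.2-fold and 56.9-fold higher in embryoid bodies at 20 and 0 mM, and the member that was lower at both doses. Of 6 tested antagonists 5 were higher and 1 was lower at each dose. DKK1, the LRP-binding inhibitor that is itself a known target of beta-catenin, had 15800 and 15100 in embryoid bodies with ethanol, against 316 and 372 in undifferentiated cells with ethanol. At 0 mM DKK1 had 16600 and 15500 in embryoid bodies, against 331 and 240 in undifferentiated cells. The difference was 45.2-fold at 20 mM and 56.9-fold at 0 mM (log2 5.50 ± 0.17 and 5.83 ± 0.17, limma adjusted p = 2.06e-05 and 2.09e-05), and the arrays of the same stage lay close together. Its promoter with 1 match is shown above.

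FRZB, a secreted Frizzled-related protein first known from cartilage, had 5250 and 5370 in embryoid bodies with ethanol, against 447 and 209 in undifferentiated cells with ethanol. The embryoid bodies at 0 mM had 4790 in both arrays, against 288 and 229 in undifferentiated cells. Differences of 17.4-fold and 18.6-fold (log2 4.12 ± 0.34 and 4.22 ± 0.34) exceeded the 2.14-fold gap between the undifferentiated replicates at 20 mM. A second bright probe set gave log2 changes of 3.57 and 3.74.

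DKK2, which can inhibit or weakly activate the pathway depending on the cell, had 166 and 155 in embryoid bodies with ethanol, against 27.5 and 28.8 in undifferentiated cells with ethanol. Embryoid bodies at 0 mM had 85.1 and 95.5, against 19.1 and 11.5 in undifferentiated cells. As all undifferentiated arrays were dim and the 0 mM embryoid bodies close to their median, the differences are at least 2.09-fold at 20 mM and at least 1.29-fold at 0 mM. The other DKK2 probe set, dim on all arrays, gave log2 changes of 0.83 at 20 mM and -0.38 at 0 mM.

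SFRP1, a WNT-binding antagonist abundant in undifferentiated pluripotent cells, was lower in embryoid bodies. It had 8710 and 8510 in embryoid bodies with ethanol, against 16200 and 14100 in undifferentiated cells with ethanol, and 9770 and 9330 in embryoid bodies at 0 mM, against 15500 and 14100. No embryoid body array reached the undifferentiated range, with log2 changes of -0.81 ± 0.10 at 20 mM and -0.63 ± 0.10 at 0 mM (limma adjusted p = 0.00107 and 0.00305). Its 2 other bright probe sets were lower still, at -1.63 and -1.51 for 20 mM and -1.98 and -1.45 for 0 mM, while the dim probe set went the other way (1.49 and 0.37), and the mean of all 4 ended the call at 20 mM.

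SFRP2, a relative of SFRP1, went the opposite way, at log2 changes of 0.96 and 0.78. DKK3, a divergent DKK that is not held to bind LRP5 or LRP6, was called higher with 0.85 and 0.40, but among probe sets outside the _x_at and _s_at kinds, the brightest gave 0.18 and -0.22, and the 0 mM call was lost or turned under 10 of 20 alternatives. DKK4, SFRP4 and SFRP5 were dim on all 8 arrays.

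R-spondins 1 to 3 were among the most changed members, and RSPO4 was not called. RSPO3, an LGR ligand with roles in vessels and placenta, had 10200 and 9770 in embryoid bodies with ethanol, against 316 and 339 in undifferentiated cells with ethanol. At 0 mM RSPO3 had 9770 and 9330 in embryoid bodies, against 355 and 339 in undifferentiated cells. Replicates differed far less than the stages, which stood 30.5-fold and 27.5-fold apart (log2 4.93 ± 0.08 and 4.78 ± 0.08, limma adjusted p = 5.26e-06 and 4.69e-06).

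RSPO1, known for its part in ovary development, had 550 and 479 in embryoid bodies with ethanol, against 60.3 and 13.8 in undifferentiated cells with ethanol. The 0 mM embryoid bodies had 501 and 631, against 22.9 and 31.6 in undifferentiated cells. From dim undifferentiated arrays, RSPO1 was at least 6.68-fold higher at 20 mM and at least 8.04-fold higher at 0 mM.

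RSPO2, known for its part in limb and lung development, had 525 and 513 in embryoid bodies with ethanol, against 29.5 and 5.13 in undifferentiated cells with ethanol. Without ethanol RSPO2 had 324 and 363 in embryoid bodies, against 25.1 and 34.7 in undifferentiated cells. It was at least 6.76-fold higher at 20 mM and at least 4.90-fold higher at 0 mM over dim undifferentiated arrays, and its call at 0 mM (adjusted p = 0.0107) was lost without undifferentiated replicate A or embryoid body replicate B of that dose. The other RSPO2 probe set, dim on all arrays, gave log2 changes of -1.33 at 20 mM and 1.46 at 0 mM. RSPO4, with log2 changes of 0.03 ± 0.15 and -0.02 ± 0.15, had arrays between 97.7 and 155 in every group, which overlapped between the stages at both doses.

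All 4 tested targets were higher in embryoid bodies at both doses, and TCF7 had no probe set of its own. LEF1, a DNA-binding partner of beta-catenin and also its target, had 2570 on each embryoid body array with ethanol, against 224 and 186 in undifferentiated cells with ethanol. At 0 mM LEF1 had 2240 and 2400 in embryoid bodies, against 186 and 145 in undifferentiated cells. The stages did not overlap, at 12.6-fold and 14.1-fold (log2 3.65 ± 0.15 and 3.82 ± 0.15, limma adjusted p = 4.19e-05 and 4.11e-05). The 2 other LEF1 probe sets were dim on all arrays.

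SP5, a zinc finger factor induced directly by beta-catenin, had 724 and 912 in embryoid bodies with ethanol, against 138 and 79.4 in undifferentiated cells with ethanol. Without ethanol SP5 had 933 and 1000 in embryoid bodies, against 102 and 100 in undifferentiated cells. The changes were 7.76-fold at 20 mM and 9.55-fold at 0 mM (log2 2.96 ± 0.26 and 3.26 ± 0.26), for the member whose promoter window held 3 matches.

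NKD1, a feedback inhibitor that binds Dishevelled, had 174 and 229 in embryoid bodies with ethanol, against 28.8 and 20.9 in undifferentiated cells with ethanol. At 0 mM the embryoid bodies had 251 and 234, against 120 and 33.1 in undifferentiated cells. The undifferentiated arrays at 20 mM were dim, and at 0 mM replicate A lay above its median and replicate B below it. NKD1 was at least 2.60-fold higher at 20 mM, and at 0 mM the log2 change of 1.94 ± 0.58 (limma adjusted p = 0.0335) was lost under 11 of 19 alternatives. A second NKD1 probe set gave 1.46 and 1.74, and another, dim on all arrays, gave -0.91 and -0.56. AXIN2, the scaffold protein most often used as a readout of the canonical pathway, is named outside the rule and after its values were seen. AXIN2 had 2950 and 2820 in embryoid bodies with ethanol, against 955 and 1070 in undifferentiated cells with ethanol, and 2750 in both embryoid body arrays at 0 mM, against 977 in both undifferentiated ones. Its log2 changes were 1.51 ± 0.08 and 1.49 ± 0.08, and both calls were lost with the mean of its 4 probe sets.

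Genes at other steps of the pathway were called in both directions. Of 63 further pathway genes 58 were tested, and 30 were higher and 7 lower at 20 mM, and 31 higher and 7 lower at 0 mM. Among all genes tested 29.2% were higher and 27.1% lower at 20 mM, and 28% and 24.7% at 0 mM. The median log2 changes of the 58 were 0.42 and 0.36. Of 9 other extracellular regulators 6 were higher at each dose, and of 8 planar polarity genes 6 were higher at 20 mM and 7 at 0 mM. Within the cell, 4 of 15 cytosolic components were higher at each dose, near the 29.2% and 28% of all genes, and 2 were lower at 20 mM and 1 at 0 mM. Of 10 nuclear factors 3 were higher and 3 lower at 20 mM, near the shares of all genes, and 4 were higher and 2 lower at 0 mM.

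WLS, the carrier that brings WNT proteins to the cell surface, had the smallest p of these genes among those higher in embryoid bodies, with 9120 on each embryoid body array with ethanol, against 479 and 468 in undifferentiated cells with ethanol. At 0 mM WLS had 9330 in both embryoid body arrays, against 550 and 490 in undifferentiated cells (log2 4.27 ± 0.08 and 4.17 ± 0.08). TPBG, a membrane protein that inhibits canonical signalling, stood at 2.04 ± 0.08 and 2.11 ± 0.08. The WNT-binding inhibitor APCDD1 stood at 3.62 ± 0.13 and 2.97 ± 0.13, and the homeobox target MSX2 at 4.19 ± 0.17 and 4.25 ± 0.17.

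MYC, a target in colon cells and a regulator of growth, had the smallest p among the lower genes, with 813 and 851 in embryoid bodies with ethanol, against 1740 and 2140 in undifferentiated cells with ethanol. Without ethanol MYC had 813 and 891 in embryoid bodies, against 2240 and 2290 in undifferentiated cells (log2 -1.21 ± 0.12 and -1.41 ± 0.12), opposite in direction to the 4 tested member targets. The repressing TCF factor TCF7L1 was at -1.08 ± 0.11 and -0.96 ± 0.11, and TCF7L2 at -0.53 ± 0.07 and -0.33 ± 0.07. The glypican GPC4 was called lower at 0 mM (-0.61 ± 0.09) and was at -0.22 ± 0.09 at 20 mM (adjusted p = 0.0812).

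**Figure D3:**
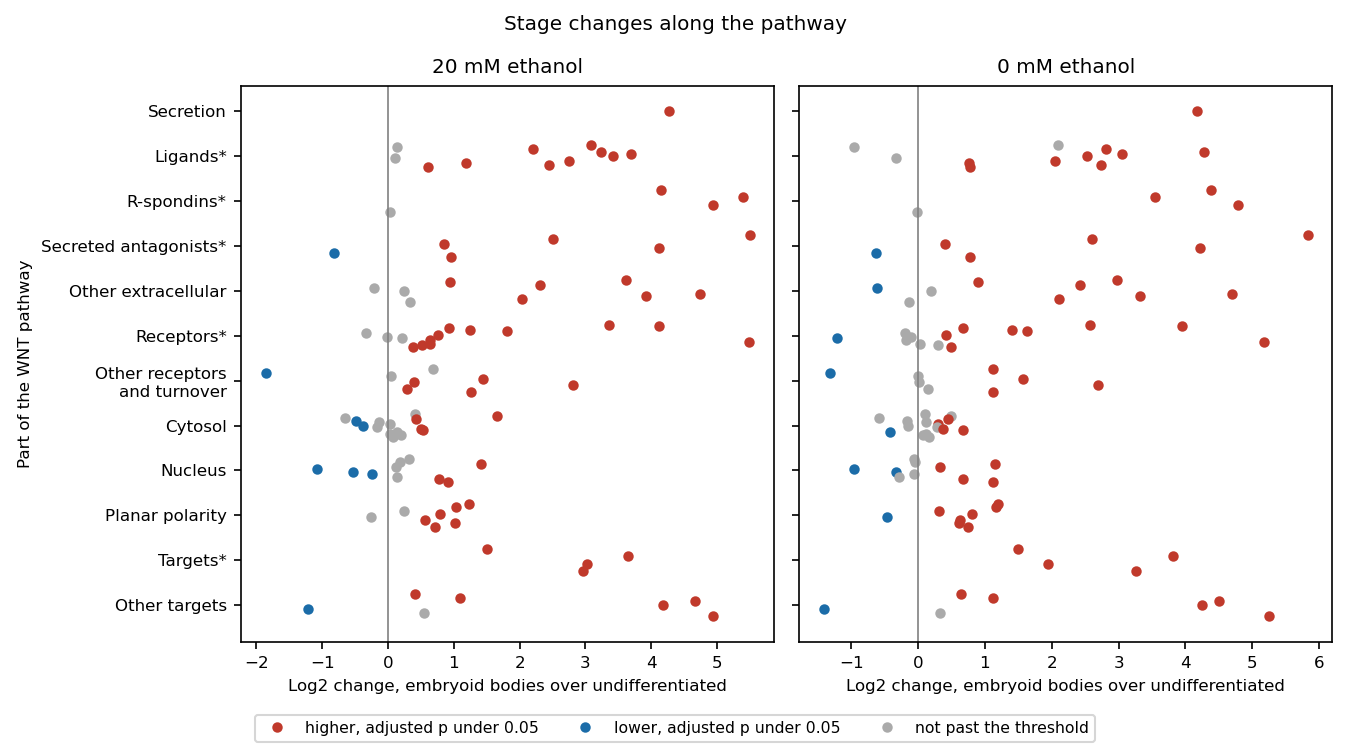
Log2 change of members (lists marked with an asterisk) and further pathway genes, embryoid bodies over undifferentiated cells, at 20 mM ethanol on the left and 0 mM on the right, with a point per gene and colour for the call. In both panels the secretion gene WLS, the R-spondins, antagonists, other extracellular genes, receptors and other targets reach above 4 on the log2 scale. The 15 cytosolic genes stay between -0.65 and 1.66.

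Ethanol gave no call among the members in embryoid bodies. With limma 0 of 39 members passed, beside 0.0711% of all genes, and 13 had an unadjusted p under 0.05, where 22.3% of all genes did. The arrays of the 2 doses did not overlap for 28 members, of which 24 (61.5%) were higher with ethanol and 4 lower, beside 29.4% and 28.1% of all genes. With no filter 30 of 46 members (65.2%) were higher without overlap, against 31.8% of all genes. The median log2 change of the 39 was 0.18, with 28 positive and 10 negative values, against 0.02 over all genes. After median centring it was -0.08, with 16 positive and 23 negative, against -0.25 over all genes. Quantile normalisation gave a median of 0.20 and cyclic loess 0.16, each with 28 positive and 11 negative, against -0.01 and -0.005 over all genes. The embryoid body arrays of this comparison also serve in the stage comparisons above. No pathway gene outside the members was called either, among 58 tested, with a median of 0.01.

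FZD1 had the smallest p among positive values, with 1910 and 2090 in embryoid bodies with ethanol, against 1200 and 1320 without it. Both treated arrays lay above both untreated ones, at a log2 change of 0.66 ± 0.13 (limma adjusted p = 0.0937). WNT5A came next, with 2290 and 2950 in embryoid bodies with ethanol, against 1450 and 1660 without it. Its groups also did not overlap, with log2 changes of 0.75 ± 0.15 (limma adjusted p = 0.0965) and 1.05 for its second probe set. FZD9 had 93.3 and 97.7, against 51.3 and 44.7, all dim (limma adjusted p = 0.116). LGR4 had 2450 and 3240, against 1910 and 1860, with no overlap (log2 0.58 ± 0.15, adjusted p = 0.119).

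Negative values were smaller. FZD3, a receptor of axon guidance, had 4470 and 4170 in embryoid bodies with ethanol, against 4900 and 5010 without it (log2 -0.20 ± 0.07, adjusted p = 0.197). SFRP1 had 8710 and 8510, against 9770 and 9330 (log2 -0.15 ± 0.10, adjusted p = 0.402), and the arrays of FZD3 and SFRP1 did not overlap between doses. LRP6 was at -0.10 ± 0.09, and SP5 at -0.25 ± 0.26 with 724 and 912, against 933 and 1000. For the targets LEF1 and AXIN2 the changes were 0.15 ± 0.15 and 0.07 ± 0.08, and for DKK1 -0.05 ± 0.17.

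Mesenchyme markers moved with the same contrast: all 4 were higher in embryoid bodies with ethanol without overlap, none was called, their median log2 change was 0.92, and their summed signal was 48900 to 49100 with ethanol, against 28000 to 28400 without it. The 6 mesoderm markers summed to 5840 to 6200 with ethanol, against 3840 to 4220 without it. Among them MEOX1 overlapped between doses and MIXL1 was dim on every array. The 6 endoderm and yolk sac markers summed to 32900 to 33600, against 26600 to 26700, though FOXA2, SOX17 and APOA1 overlapped. The 5 neuroectoderm markers summed to 21400, against 20500 to 21000. For the 3 measured trophoblast markers the sums were 1890 to 1990, against 1860 to 2010. The 8 pluripotency markers summed to 74000 to 77100, against 84700 to 87400. Their part in the values of the members was not tested.

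**Figure D4:**
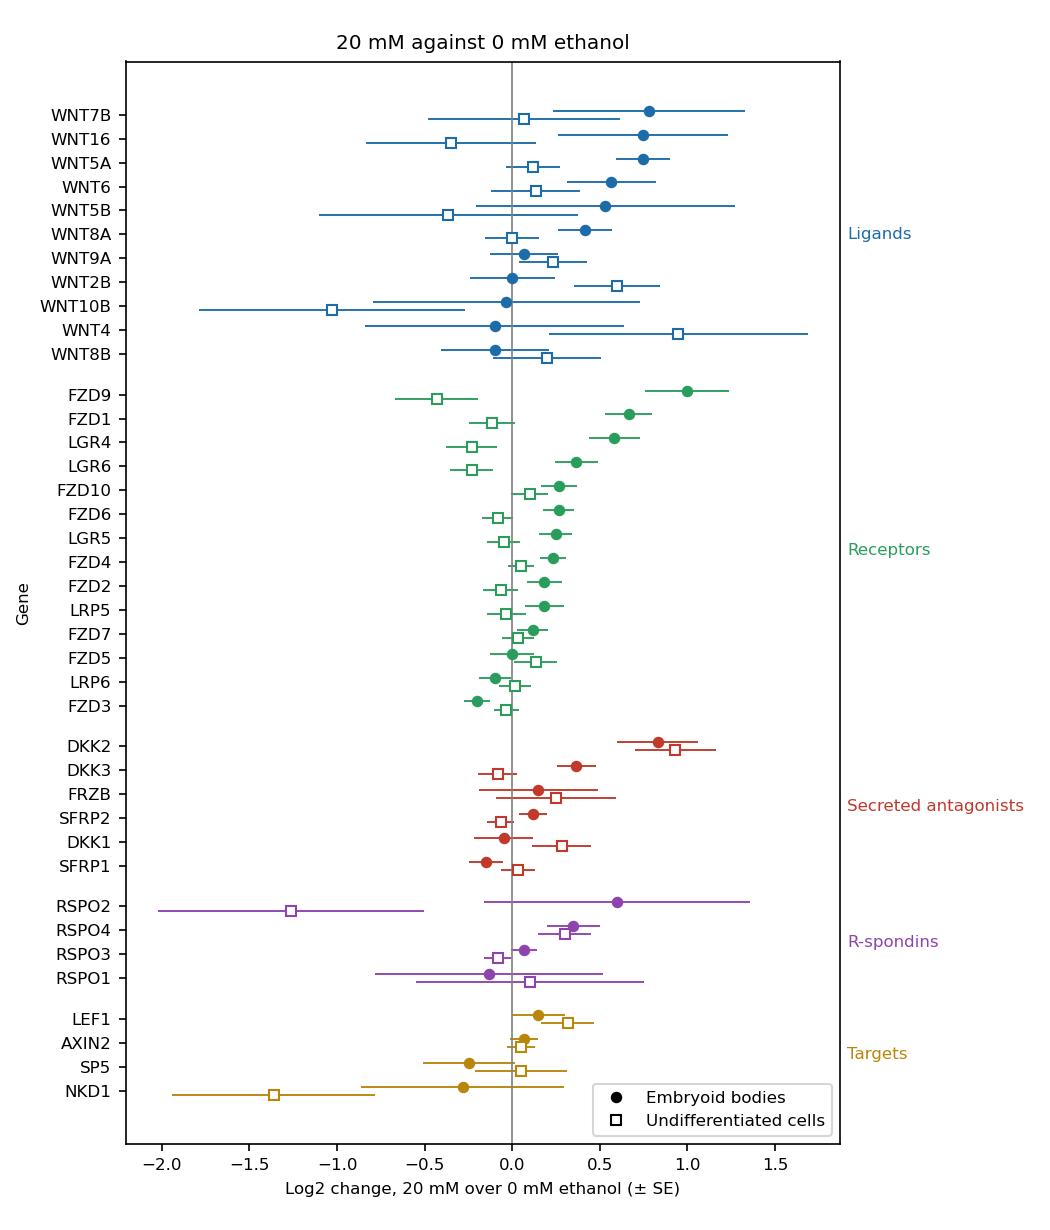
Log2 change of each tested member, 20 mM over 0 mM ethanol, in embryoid bodies (filled circles) and undifferentiated cells (open squares), with standard errors as bars. In embryoid bodies 28 of 39 points lie right of 0 and none passed the threshold, and the dim members, such as RSPO2, NKD1 and WNT10B, have the widest bars.

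In undifferentiated cells ethanol gave no call either, with 0 of 39 members in limma, beside 0.00711% of all genes, and 1 at an unadjusted p under 0.05, where 7.01% of all genes were. The arrays of 3 members were higher and of 4 lower without overlap (7.69% and 10.3%), beside 15.4% and 12.1% of all genes, and the median log2 change was 0.03, against 0.02. DKK2 had the smallest p, with 27.5 and 28.8 in undifferentiated cells with ethanol, against 19.1 and 11.5 without it (adjusted p = 0.491), all dim, so no fold is given. WNT2B was dim in both groups, and LEF1 (0.32 ± 0.15) and RSPO4 (0.30 ± 0.15) were above the array medians. The smallest p-values among negative changes belonged to NKD1, LGR6 (-0.23 ± 0.12), FZD9 and RSPO2, of which NKD1 and RSPO2 rested on dim signals of 20.9 to 28.8 and 5.13 to 29.5 with ethanol.

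No member passed a test of whether its ethanol effect differed by stage, the interaction term of the same fit (smallest adjusted p = 0.287). An unadjusted p under 0.05 was found for 7 of 39 members, where 13% of all genes had one. These were the receptors FZD9, FZD1, LGR4, LGR6 and FZD6 with WNT5A and DKK3, and each had the more positive change in embryoid bodies, by 0.35 for FZD6 up to 0.81 for LGR4 on the log2 scale, leaving out FZD9, which was dim on 5 of its 8 arrays.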

How the data were processed

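The members, the gene lists and the tests were chosen with earlier results of these data known. Expression was measured on 8 arrays of 54675 probe sets. The authors deposited log10 signals, by the evidence of the values, which ran from -1.46 to 4.61 with a trimmed mean signal of 500 on each array (2% trimmed at each end). RMA is named, per the submitters' processing notes, but does not give such values. The design had left the log base open, and the values were multiplied to log2 with no further normalisation. They are given to 2 decimals, a step of 0.0332 in log2, and the number of arrays limits the precision.

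Of the probe sets 41097 named 1 gene in the platform annotation, 1801 several and 11777 none, and 62 were controls. Genes with at least 2 arrays above the array median were tested with limma 3.58.1 in R 4.3.3 (1 mean per group, 4 residual and 1.81 prior degrees of freedom), and errors are standard errors of that fit. Group signals are geometric means. A floored fold raises dim values to the median of their array, since detection calls were not used here. Of the members, 25 lay above the median on all 8 arrays.

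Arrays are given in full for members called at both doses with the 3 largest changes at 0 mM in each direction within a role, and 4 members with the smallest p in each direction are named for ethanol. FZD7 and AXIN2 are given in full outside that rule. For other pathway genes the 3 smallest p in each direction of a stage comparison are named. In simulated data the median estimates of the fit lay close to the sizes put in. That does not measure what share of changes the fit finds in these data. Like-lettered replicates did not pair, with correlations of deviations from -0.0255 to 0.0494. Alternatives were 3 other filters, a floor on dim values, 3 normalisations, 2 choices of probe set, another variance model, fewer arrays and a replicate block. Set tests were not used here.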

Additional observations from a re-analysis of the deposited data

How the results depend on the processing

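Of 33 stage calls among the members at 20 mM 21 held under every alternative that measured the gene, and of 30 at 0 mM 19 did. The count of higher members at 0 mM stayed within 1.5 times its value of 28 under all 20 alternatives (19 to 29). At 20 mM it was 20 with a filter at the 75th percentile and 21 with the mean of all probe sets, against 32, where fewer members were tested. Lower members at 0 mM numbered 1 with the filter at the 75th percentile, the filter on the mean, the probe sets outside the _x_at and _s_at kinds, or the floor, and 5 after median centring, against 2. At 20 mM they numbered 2 with the 75th percentile, the floor or a trended and robust variance, 3 after median centring, and 0 with the mean of probe sets or without those kinds, against 1. Leaving out each array gave 27 to 32 higher and 1 to 2 lower members at 20 mM, and 21 to 28 higher and 2 to 3 lower at 0 mM. The 2 lower at 20 mM came without the 20 mM undifferentiated replicate B.

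Ethanol in embryoid bodies called 2 members with the filter at the 75th percentile (FZD1, WNT5A), beside 477 of 9041 genes. After median centring 2 members were called (FZD3 and SFRP1, lower), beside 3880 of 14072 genes, of which 3708 were lower. The floor gave 4 members (DKK2, FZD1, RSPO2, WNT5A), beside 459 of 14072 genes. DKK2 and RSPO2 were dim on every undifferentiated array, and the floor removes the spread of those arrays, which enters the same fit. A trended and robust variance gave 4 members (DKK3, FZD1, LGR4, WNT5A), beside 959 of 14072 genes. With the 4 arrays of that stage alone 0 members were called. In undifferentiated cells leaving out each array gave 0 to 1, the 1 being WNT10B without the 20 mM replicate B. With the replicate block, for letters that did not pair the arrays, 31 members were higher at 20 mM and 28 at 0 mM, and 0 changed with ethanol in either stage. Among the 48 changes of members named by rule, those that turned direction were the ethanol changes of SFRP1 in embryoid bodies (0.054 with the mean of probe sets), and of LEF1 (-0.19 with that mean) and RSPO2 (0.13 with the floor) in undifferentiated cells. Other stage changes that turned under some alternative were those of the called LRP6 (20 mM) and DKK3 (0 mM), and of FZD7, FZD9, LGR6, RSPO4, WNT6 and WNT16, not called at that dose. The cause was not tested. The interaction was not run with 4 arrays. Dim signals limit the folds of the 9 members above the median in embryoid body arrays alone. They also limit those of WNT5B, WNT7B, WNT16, NKD1 and FZD9, each dim on some arrays.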
